A study of Mus musculus with 8 samples.

Results

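Solute carriers, ion pumps and aquaporins are the membrane proteins that move ions, water, sugars, amino acids, metals and vitamins across the membranes of the lens. Their transcripts were followed in lens RNA of mice of both sexes, aged 10 days, on 8 arrays, 2 for each of C57BL/6J α3Cx46 KO, C57BL/6J WT, 129SvJae α3Cx46 KO and 129SvJae WT. 129SvJae and C57BL/6J are inbred strains, and KO mice of both backgrounds lack the fiber cell connexin α3Cx46, encoded by Gja3, in all cells. Each array received RNA from 1 pool of 20 to 30 lenses, hybridized to an MG-U74Av2 chip. Whether both pools of a group were drawn from different mice is not stated in the sources used here, and the p-values therefore cover the variation among these samples, which could be technical. Genes were chosen by symbol: Slc followed by a digit, Atp1a, Atp1b, Atp2a, Atp2b, Atp2c, or Aqp followed by a digit. A total of 165 genes with 207 probe sets, the groups of short oligonucleotides that each measure 1 transcript, matched the rule. The brightest probe set stood for each gene, and 133 genes had a mean signal above 50 arbitrary units in at least 1 of the 4 groups. They stand beside the 10078 probe sets, of 12422 that are not controls, that passed the same level. All 4 groups had a mean above 50 for 96 genes, 3 groups for 16, 2 groups for 11 and 1 group for 10, and the other 32 genes stayed at or below 50 in every group. Just inside the level were Aqp9 and Slc11a1, each with a highest group mean of 54.2, and Slc34a1 with 55.7. Just outside it were Slc2a2 with 47.8, Slc17a1 with 47.2 and Slc27a5 with 46.2. By its symbol the rule also takes in Slc4a1ap, Slc9a3r1 and Slc9a3r2, which are binding partners of carriers and not carriers themselves.

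The lens has no blood vessels, so every nutrient, ion and metabolite enters and leaves through its surface and then passes between its cells. Sodium pumps, most active in the epithelium, and leak pathways in the fibers drive a circulating current of ions and water that carries solutes inward and returns them through gap junctions, which α3Cx46 helps to form. Glucose, amino acids for crystallin and glutathione synthesis, ascorbate and trace metals all need dedicated carriers, and aquaporin 0 (Mip), whose symbol falls outside the rule, is the main membrane protein of the fibers. The arrays measure transcripts in whole pooled lenses, in which fewer cells of a type and less RNA per cell cannot be told apart.

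The arrays were scaled to the same mean of 250, but replicate 1 arrays had more probe sets above 50 than replicate 2 arrays. The counts were 8338 to 8602 in replicate 1 and 7637 to 8070 in replicate 2, and the median signals as deposited were 102 to 114.6 and 85.2 to 95.1. Between 7637 and 8602 probe sets, and 104 to 115 of the 133 transport genes, had a signal above 50 on an array, and the Spearman correlation between the 2 arrays of a group across the 133 genes was 0.808 to 0.856 in the 4 groups. Gja3 had signals of 448 and 519 in C57BL/6J KO lenses and 472 and 445 in 129SvJae KO lenses, against 1968 and 3274 in C57BL/6J WT lenses and 1100.3 and 3381 in 129SvJae WT lenses, so every KO array lay below every WT array. All 8 measured markers of lens fibers and all 5 of lens epithelium were above 50. Sag, an arrestin of photoreceptors, reached 475 on the first array of 129SvJae WT and 9.99 to 94.5 on the others. Within each group replicate 1 is given before replicate 2. One scan session held the replicate 1 arrays of all groups, another held replicate 2 of all groups but 129SvJae WT, and that array was scanned alone. A fluidics communication error was noted for C57BL/6J WT replicate 1.

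The sodium pump gave the brightest probe set of all 133 genes. Na,K-ATPase exports sodium and imports potassium, and its beta subunits carry the catalytic subunit to the membrane. Atp1b3, a beta subunit, had signals of 9382 and 8806 in C57BL/6J KO lenses and 9016 and 9007 in C57BL/6J WT lenses, against 9852 and 9594 in 129SvJae KO lenses and 9539 and 9902 in 129SvJae WT lenses. These 8 values lay within 8806 to 9902, the narrowest relative spread among the brightest genes, although all 4 C57BL/6J arrays were below all 4 129SvJae arrays. Atp1b1, another beta subunit, ranged over 57.7 to 212 and Atp1b2 over 20.1 to 146, both close to the level of 50 on some arrays. Alpha subunits of the pump were not analysed here. A brighter probe set does not mean a more abundant transcript, since the oligonucleotides of different probe sets bind with different strength.

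Carriers of amino acids and peptides were the largest group, with 28 of 32 genes measured, 22 of them above 50 in all 4 groups, and mean signals over the 8 arrays between 38.2 and 4543. Slc7a5 and Slc3a2 encode the light and the heavy chain of a heterodimer that exchanges large neutral amino acids. Slc7a5 had signals of 3745 and 5232 in C57BL/6J KO lenses and 4137 and 4729 in C57BL/6J WT lenses, against 4840.4 and 5194 in 129SvJae KO lenses and 3782 and 4686 in 129SvJae WT lenses. Slc3a2 had 3689 and 4028 in C57BL/6J KO lenses and 4425 and 3037 in C57BL/6J WT lenses, against 4651 and 3960.3 in 129SvJae KO lenses and 4224 and 3726 in 129SvJae WT lenses. The arrays of the strains overlapped for both chains, as did those of the genotypes. The 95% interval of the log2 ratio of C57BL/6J over 129SvJae was -0.38 to 0.27 for Slc7a5 and -0.46 to 0.20 for Slc3a2, and that of KO over WT was -0.20 to 0.45 and -0.24 to 0.42, so a 2-fold difference lay outside all 4 intervals. Slc6a6, the taurine transporter, had signals of 461 and 742 in C57BL/6J KO lenses and 649 and 707 in C57BL/6J WT lenses, against 508 and 749 in 129SvJae KO lenses and 997 and 495 in 129SvJae WT lenses. Slc1a4, a neutral amino acid exchanger, ranged over 459 to 596, and Slc38a2, a sodium-coupled importer of small neutral amino acids such as glutamine and alanine, ranged over 299 to 617. Slc6a9, a glycine transporter, ranged over 348 to 814. All of these were present above 50 on every array. Of the other carriers of amino acids, some had a moderate signal, such as Slc7a8 with a mean over the 8 arrays of 442 and Slc38a4 with 425. Others were dim. Slc1a5, which takes up glutamine, ranged over 71.7 to 179, Slc1a2, a glutamate transporter, over 29.3 to 160.0, and Slc7a11, the light chain of the cystine and glutamate exchanger, over 6.30 to 137. Slc1a1, a glutamate and cysteine transporter, was below 50 in every group.

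Among carriers of sugars and nucleotide sugars, 17 of 21 genes were measured, with mean signals over the 8 arrays between 40.6 and 1211, and 14 were above 50 in all 4 groups. Slc35b1, an exchanger of ATP and ADP in the membrane of the endoplasmic reticulum, had signals of 1127 and 1289.9 in C57BL/6J KO lenses and 1104 and 1147 in C57BL/6J WT lenses, against 1269 and 1456 in 129SvJae KO lenses and 1149 and 1148 in 129SvJae WT lenses. Slc2a1, the facilitated glucose transporter of many epithelia, had 927 and 1527 in C57BL/6J KO lenses and 907 and 1295 in C57BL/6J WT lenses, against 1031 and 1436 in 129SvJae KO lenses and 787 and 1385 in 129SvJae WT lenses. The second array of each group was the brighter one for Slc2a1, in all 4 groups. Slc2a3, a glucose transporter with high affinity, ranged over 121 to 311. The monocarboxylate carriers, which move lactate and pyruvate, were represented by Slc16a8 alone, with 34.4 to 192. Slc16a1 and Slc16a7 were below 50 in every group, and Slc16a3 was not analysed here.

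Metal carriers were measured for all 16 genes on the rule, 12 of them above 50 in all 4 groups, with mean signals between 37.2 and 2681. Slc31a1, the high-affinity copper importer, was the brightest of them with signals of 1783 to 3932, and is described with the strains. The zinc importer Slc39a4 had signals of 925 and 732 in C57BL/6J KO lenses and 1115 and 999 in C57BL/6J WT lenses, against 817 and 566 in 129SvJae KO lenses and 1052 and 771 in 129SvJae WT lenses, and its probe set carries a suffix that marks oligonucleotides which may detect other transcripts. A second probe set of Slc39a4 without the suffix had a mean signal of 88.2 and ranged over 17.9 to 134.7. Its log2 ratio of KO over WT was 0.14 (SE 0.65) by limma, against -0.38 (SE 0.19) for the brighter one. The zinc carrier Slc30a3, which loads zinc into vesicles, had 971 and 505 in C57BL/6J KO lenses and 594 and 638 in C57BL/6J WT lenses, against 663 and 267 in 129SvJae KO lenses and 535 and 604 in 129SvJae WT lenses. Neither strain nor genotype separated the arrays of Slc39a4 or Slc30a3. Mitochondrial carriers were measured for 18 of 20 genes, 16 of them above 50 in all 4 groups, with mean signals between 84.3 and 5669. Slc25a4, which exchanges ADP and ATP across the inner membrane, had signals of 5152 and 5709.6 in C57BL/6J KO lenses and 5394 and 5973 in C57BL/6J WT lenses, against 5747 and 5922 in 129SvJae KO lenses and 5664 and 5793 in 129SvJae WT lenses, a range of 5152 to 5973 over all 8 arrays. Slc25a39, linked to the import of glutathione into mitochondria, ranged over 1409.7 to 2389, Slc25a36, a carrier of pyrimidine nucleotides, over 859 to 1370.5, and Slc25a11, which exchanges oxoglutarate for malate, over 598 to 875. Carriers of organic ions, lipids and others were measured for 18 of 27 genes, with mean signals between 28.6 and 930.1. The sulfated steroid importer Slc10a6, the brightest of them, ranged over 476 to 1421. Carriers of nucleosides, vitamins and cofactors were measured for 6 of 8 genes. Slc23a3, of the ascorbate transporter family, had 429 to 963 and Slc23a2, an ascorbate transporter, had 114 to 196. The Slc23a3 probe set also carries a suffix for oligonucleotides that may detect other transcripts, and a second one without it had a mean signal of 153. Slc23a1, the other ascorbate transporter, was below 50 in every group.

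The calcium pumps and aquaporins on the rule were dim. Atp2b1, Atp2b3, Atp2b4, Aqp3, Aqp5 and Aqp6 were not analysed here, so these values do not describe either family as a whole. All 5 calcium ATPases on the rule were measured, but 2 of them had a mean above 50 in all 4 groups. Atp2c1, which pumps calcium and manganese into the Golgi, ranged over 230.0 to 389.7, Atp2a3, a calcium pump of the endoplasmic reticulum, over 96.3 to 194, Atp2a2, the calcium pump of the endoplasmic reticulum of most cells, over 28.6 to 168, and Atp2b2, a plasma membrane calcium pump, over 18.7 to 151. The last 2 crossed the level of 50 within single groups. Of 6 aquaporins, 5 were measured, and 2 of these were above 50 in all 4 groups. Aqp1, the water channel of the lens epithelium, had signals of 87.1 and 154 in C57BL/6J KO lenses and 34.5 and 93.2 in C57BL/6J WT lenses, against 143 and 161 in 129SvJae KO lenses and 24.5 and 176 in 129SvJae WT lenses, and in 129SvJae WT lenses its 2 arrays differed more than any 2 groups did in their means. Aqp4, a water channel best known from glia, had 48.7 and 176 in C57BL/6J KO lenses and 115 and 129 in C57BL/6J WT lenses, against 213 and 304 in 129SvJae KO lenses and 205 and 173 in 129SvJae WT lenses, with a log2 ratio between the strains of -1.04 (adjusted p = 0.576, SE 0.41) by limma. Aqp7, which also passes glycerol, ranged over 28.9 to 145, Aqp8 over 21.0 to 78.3 and Aqp9, which also passes glycerol and urea, over 12.9 to 81.6. Aqp2 was below 50 in every group. Mip, the fiber aquaporin outside the rule, had group mean signals of 14033 in C57BL/6J KO and 15586 in C57BL/6J WT lenses, against 12616 in 129SvJae KO and 13352 in 129SvJae WT lenses. Its log2 ratio between the strains was 0.20 (adjusted p = 0.886, SE 0.14) by limma.

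Of the carriers of inorganic ions and pH, 13 of 21 genes were measured, with mean signals between 37.6 and 512, and 8 were above 50 in all 4 groups. Slc12a2, the cotransporter of sodium, potassium and chloride that regulates cell volume, had signals of 417 and 608 in C57BL/6J KO lenses and 595 and 445 in C57BL/6J WT lenses, against 412 and 597 in 129SvJae KO lenses and 513 and 509.5 in 129SvJae WT lenses. Among cotransporters of potassium and chloride, Slc12a4 ranged over 112 to 322 and Slc12a7 over 27.8 to 150.2. Slc4a2, a chloride and bicarbonate exchanger, ranged over 139 to 316, its relative Slc4a3 over 39.4 to 168, and Slc8a1, the exchanger of sodium and calcium, over 110.0 to 207. None of these separated the strains or the genotypes on all arrays. Slc3a1, which pairs with a light chain to carry cystine and basic amino acids, ranged over 34.9 to 224.

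**Figure D1:**
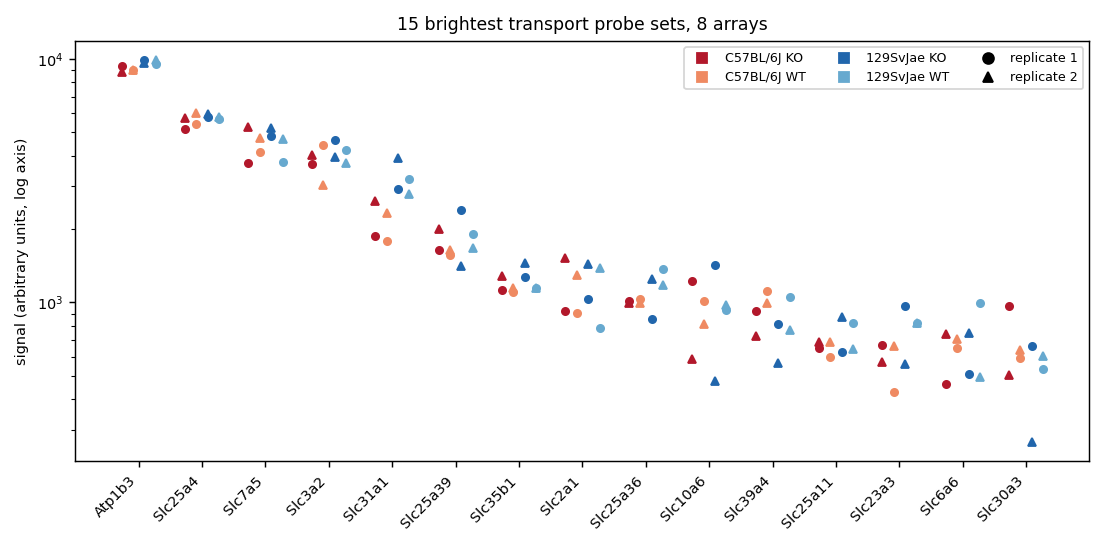
Signals of the 15 brightest transport probe sets on the 8 arrays (y axis, arbitrary units, logarithmic), colored by group, with circles for replicate 1 and triangles for replicate 2. Atp1b3 stayed within 8806 to 9902 on all arrays, while Slc30a3 spread over 267 to 971.

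The strains were compared to ask which transcripts differ between C57BL/6J, in which loss of α3Cx46 gives mild cataracts, and 129SvJae, in which it gives severe ones. None of the 133 transport genes passed the test for the difference between the strains averaged over genotypes, where 0.367% of all probe sets did, or in KO lenses (0.0893% of all) or WT lenses (0.0695% of all) alone, with limma and an adjusted p under 0.05 as the threshold. The methods' t-test on log2 signals, adjusted in the same way, also gave 0 in each of these comparisons. At an unadjusted p under 0.05, limma gave 6 genes averaged over genotypes, 3 higher and 3 lower in C57BL/6J, which is 4.51% against 6.97% of all probe sets. The same limit gave 4 genes in KO lenses (Slc35b2, Slc37a4, Slc31a1 and Aqp4), 3.01% against 3.73% of all probe sets, and 7 in WT lenses, 5.26% against 6.47% of all. The t-test gave 7 genes averaged over genotypes, 5 in KO and 4 in WT lenses. With the thresholds of the study's methods (a fold of at least 1.8, a mean above 50 and p of at most 0.01, here limma's), 1 gene, Slc35b2, passed in KO lenses, beside 0.804% of all probe sets, and 0 passed in WT lenses, beside 1.46% of all. All 4 C57BL/6J arrays lay above all 4 129SvJae arrays for Slc39a7 and Slc6a15, 2 of 133 genes beside 2.95% of all probe sets, and below them for Slc31a1, Slc4a4 and Atp1b3, 3 of 133 beside 2.62% of all. Both shares of transport genes, 1.5% and 2.26%, were under those of all probe sets. The median log2 ratio of C57BL/6J over 129SvJae was -0.00 over the 133 genes, with 66 positive and 67 negative, and 0.01 over all probe sets.

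Of the 6 genes with an unadjusted p under 0.05 between the strains, Slc31a1 was the brightest. Its signals were 1866 and 2616 in C57BL/6J KO lenses and 1783 and 2328 in C57BL/6J WT lenses, against 2917 and 3932 in 129SvJae KO lenses and 3215 and 2792 in 129SvJae WT lenses. The C57BL/6J arrays spanned 1783 to 2616 and the 129SvJae arrays 2792 to 3932, so the strains did not overlap. The log2 ratio of C57BL/6J over 129SvJae was -0.59 (adjusted p = 0.291, SE 0.17) averaged over genotypes by limma, with a 95% interval of -0.95 to -0.22 and an unadjusted p of 0.00415. It was -0.62 (SE 0.24) in KO and -0.56 (SE 0.24) in WT lenses. Between arrays with the same replicate number, the log2 ratio was -0.64 and -0.59 in KO and -0.85 and -0.26 in WT lenses. The sign of each of these ratios follows from the strains not overlapping. When the fit had a block for the scan session, the ratio was -0.75 and passed the test (limma, adjusted p = 0.0236). The array 129SvJae WT replicate 2 has no weight in that fit, since it was scanned alone. Without that array and with no block the adjusted p from limma was 0.225, and with the replicate number as a block it was 0.114. A second probe set of Slc31a1 had signals of 1250.5 and 1274 in C57BL/6J KO lenses and 1047 and 1203 in C57BL/6J WT lenses, against 1184 and 1605 in 129SvJae KO lenses and 1809 and 1459.8 in 129SvJae WT lenses. It leaned the same way, with a log2 ratio of -0.33 (adjusted p = 0.764, SE 0.16) by limma, but 1 array of 129SvJae KO lay among those of C57BL/6J.

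Slc39a7, a zinc transporter of the endoplasmic reticulum and Golgi that releases zinc into the cytosol, was higher on every C57BL/6J array. Its signals were 332 and 335 in C57BL/6J KO lenses and 361 and 317 in C57BL/6J WT lenses, against 239.8 and 217 in 129SvJae KO lenses and 255 and 254 in 129SvJae WT lenses. The log2 ratio was 0.48 (adjusted p = 0.752, SE 0.23) by limma, and the gap between the lowest C57BL/6J array and the highest 129SvJae array was wider than the gap between the 2 arrays of any group. Slc6a15, a sodium-dependent transporter of neutral amino acids, had 257 and 266 in C57BL/6J KO lenses and 272 and 247 in C57BL/6J WT lenses, against 200.2 and 225 in 129SvJae KO lenses and 198 and 215 in 129SvJae WT lenses, with a log2 ratio of 0.31 (adjusted p = 0.911, SE 0.26) by limma. Slc35b2, which carries the sulfate donor PAPS into the Golgi, had signals of 663 and 563 in C57BL/6J KO lenses and 412 and 614 in C57BL/6J WT lenses, against 181 and 294 in 129SvJae KO lenses and 386 and 422 in 129SvJae WT lenses. Its strains separated in KO lenses, where the log2 ratio was 1.41 (adjusted p = 0.409, SE 0.34) by limma, and overlapped in WT lenses, where it was 0.32 (adjusted p = 0.943, SE 0.34) by the same fit. The averaged ratio of 0.86 (SE 0.24) had the lowest adjusted p of the 133 genes, 0.233 from limma. Slc4a4, the cotransporter of sodium and bicarbonate, had 33.4 and 73.4 in C57BL/6J KO lenses and 7.10 and 58.6 in C57BL/6J WT lenses, against 104 and 122 in 129SvJae KO lenses and 102 and 99.7 in 129SvJae WT lenses, with a log2 ratio of -1.75 (adjusted p = 0.569, SE 0.68) by limma. Its C57BL/6J arrays were near or below 50, where signals are close to background, and the ratio was -0.98 without C57BL/6J WT replicate 1 and -0.90 with signals under 50 set to 50. For Atp1b3, whose arrays did not overlap either, the log2 ratio was -0.10 (adjusted p = 0.95, SE 0.12) by limma with a 95% interval of -0.37 to 0.16, and quantile normalization moved the ratio to -0.04.

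Slc31a1, Slc39a7 and Slc35b2, picked for their strain ratios at signals well above 50 after their values were seen, are shown with the 250 bases before their start, from RefSeq on GRCm38.p6, an assembly of the C57BL/6J genome, so that the 129SvJae sequence is not shown. Capitals mark the GC box searched for, GGGCGG on either strand, a site bound by Sp1 family factors. The Slc31a1 promoter lies at chr4:62360451-62360700 on the plus strand, that of Slc39a7 at chr17:34031691-34031940 on the minus strand, and that of Slc35b2 at chr17:45563686-45563935 on the plus strand.
Slc31a1: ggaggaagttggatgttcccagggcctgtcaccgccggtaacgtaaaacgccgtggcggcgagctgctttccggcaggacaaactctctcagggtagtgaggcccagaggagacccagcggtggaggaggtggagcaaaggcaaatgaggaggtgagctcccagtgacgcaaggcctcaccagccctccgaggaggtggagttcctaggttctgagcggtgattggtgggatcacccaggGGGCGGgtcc
Slc39a7: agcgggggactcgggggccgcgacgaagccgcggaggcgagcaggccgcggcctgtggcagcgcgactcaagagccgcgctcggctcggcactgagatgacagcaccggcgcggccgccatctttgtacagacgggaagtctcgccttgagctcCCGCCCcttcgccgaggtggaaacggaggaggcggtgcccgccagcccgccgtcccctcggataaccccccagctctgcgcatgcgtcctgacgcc
Slc35b2: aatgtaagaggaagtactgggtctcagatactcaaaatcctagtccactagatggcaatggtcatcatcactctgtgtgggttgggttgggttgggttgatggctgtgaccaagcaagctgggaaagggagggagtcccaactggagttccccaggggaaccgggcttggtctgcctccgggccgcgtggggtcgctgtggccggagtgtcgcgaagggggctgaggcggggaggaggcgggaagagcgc
Slc31a1 and Slc39a7 each held 1 GC box and Slc35b2 held 0 in these windows. A GC box was found in 59.1% of the 110 transport genes matched of 133, and in 32.9% of the 27025 promoters of the same length. The 27025 promoters were not limited to genes on the array or above 50 in the lens, as the transport genes were, so the shares are not of like sets. The median GC content was 58.6% in the matched transport genes and 52.0% in all genes, and it was 62.8%, 72.4% and 60.4% in the 3 sequences as printed. The core of the metal response element, TGCACNC or TGCGCNC on either strand, was not found in any of the 3, and was found in 29.1% of the transport genes and 21.3% of all genes.

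**Figure D2:**
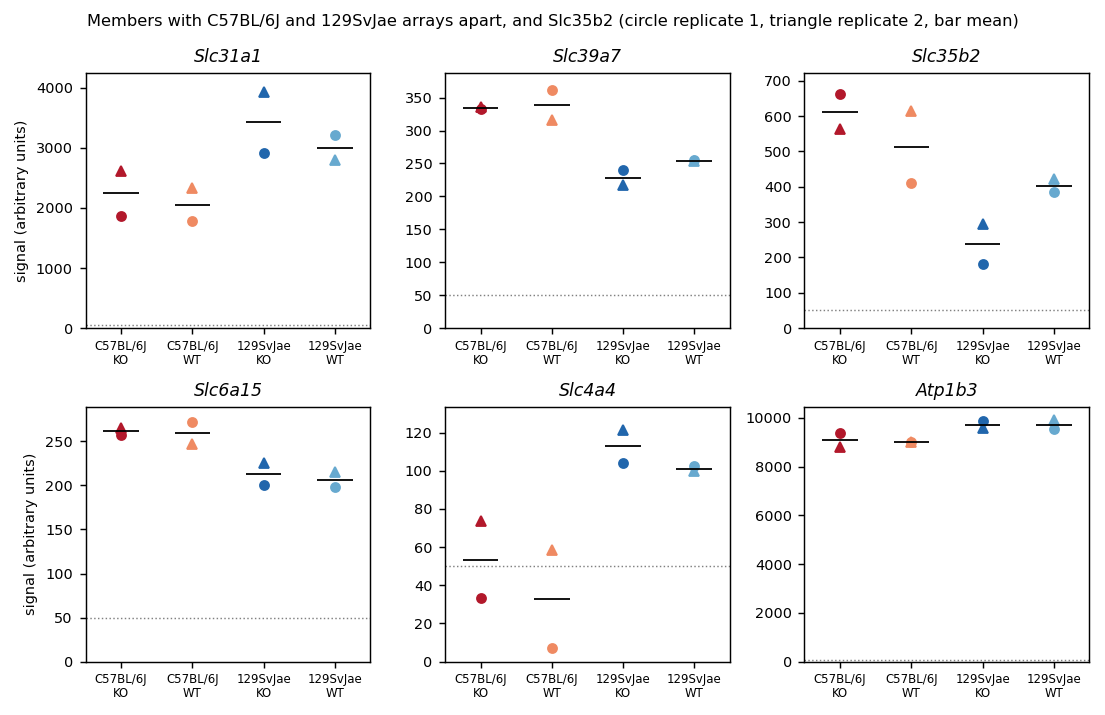
Signals of the 5 transport genes whose C57BL/6J and 129SvJae arrays did not overlap, and of Slc35b2, in the 4 groups (y axis, arbitrary units from 0; circle replicate 1, triangle replicate 2, bar mean of 2 arrays, dotted line the level of 50). Slc31a1 spanned 1783 to 2616 in C57BL/6J and 2792 to 3932 in 129SvJae lenses, and the strains were apart for Slc35b2 in KO lenses and overlapped in WT lenses.

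KO and WT lenses were compared to ask which transcripts change when α3Cx46 is lost, at an age before cataracts are seen. No transport gene passed the test by limma for the KO effect averaged over strains, where 0.0198% of all probe sets did, in C57BL/6J lenses (0.00992% of all) or in 129SvJae lenses (0% of all), and the t-test also gave 0 in each. At an unadjusted p under 0.05 limma gave 6 genes averaged over strains (2 higher and 4 lower in KO), 2 in C57BL/6J lenses (Slc12a1 and Slc19a1) and 6 in 129SvJae lenses, where the t-test gave 5, 4 and 6. The share of transport genes was 4.51% averaged over strains, beside 3.05% of all probe sets, 1.5% in C57BL/6J lenses, beside 2.31% of all, and 4.51% in 129SvJae lenses, beside 3.12% of all. By the thresholds of the methods, 0 genes passed in C57BL/6J lenses (0.367% of all probe sets) and 0 in 129SvJae lenses (0.298% of all). All 4 KO arrays lay above all 4 WT arrays for 1 gene, Slc19a1, beside 0.972% of all probe sets, and below them for 4 genes, Slc4a1, Atp2a1, Slc35a4 and Slc44a1, which is 3.01% of the transport genes beside 1.22% of all. The median log2 ratio of KO over WT was 0.01 over the 133 genes, with 69 positive and 64 negative, and -0.02 over all probe sets.

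All 5 genes whose KO and WT arrays did not overlap were dim. Slc4a1, the anion exchanger best known from the red cell membrane, had signals of 73.0 and 63.5 in C57BL/6J KO lenses and 72.2 and 84.7 in 129SvJae KO lenses, against 163 and 134 in C57BL/6J WT lenses and 168 and 163 in 129SvJae WT lenses. The KO arrays spanned 63.5 to 84.7 and the WT arrays 134 to 168, and the log2 ratio of KO over WT was -1.10 (adjusted p = 0.998, SE 0.38) by limma. The arrays of the other red cell markers overlapped between the genotypes. Hba-a1, an alpha globin, had 421 to 586 in KO and 162 to 641 in WT lenses, and Alas2, which makes heme in red cell precursors, had 11.5 to 27.1 in KO and 13.3 to 39.9 in WT lenses. Of the 6 red cell markers listed, these 3 genes had a probe set, and 2 of them had a mean above 50 in a group. Alas2 was below 50 on every array. None was at 0 on any array. The sum of the 3, which includes Slc4a1 itself, was 496 to 661 in C57BL/6J KO and 596 to 686 in 129SvJae KO lenses, against 339 to 634 in C57BL/6J WT and 605 to 842 in 129SvJae WT lenses. Atp2a1, the calcium pump of fast muscle, had signals of 40.9 and 32.1 in C57BL/6J KO lenses and 34.3 and 53.1 in 129SvJae KO lenses, against 83.1 and 135 in C57BL/6J WT lenses and 183 and 80.1 in 129SvJae WT lenses, with a log2 ratio of -1.53 (adjusted p = 0.998, SE 0.53) by limma. A second, dimmer probe set of Atp2a1 had a ratio of -0.15 (adjusted p = 0.998, SE 0.86) by limma, and the mean of both probe sets one of -0.84. Of the 5 markers of striated muscle, Acta1 had 8.49 to 68.1, Myh1 2.7 to 52.1, Tnnt3 9.49 to 112, Myh4 58.5 to 157 and Ckm 92.6 to 188 over all arrays. Their summed level was 379 to 427 in C57BL/6J KO lenses and 285 to 367 in 129SvJae KO lenses, against 330.3 to 332 in C57BL/6J WT lenses and 277 to 354 in 129SvJae WT lenses, and the part of muscle RNA in the Atp2a1 signals was not tested.

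Slc35a4, of the nucleotide sugar transporter family, had signals of 49.2 and 19.3 in C57BL/6J KO lenses and 6.30 and 19.1 in 129SvJae KO lenses, against 168 and 79.0 in C57BL/6J WT lenses and 60.6 and 114 in 129SvJae WT lenses. All 4 KO arrays were below 50, and the log2 ratio was -2.41 (adjusted p = 0.998, SE 0.69) by limma and -0.97 with signals under 50 set to 50. Slc44a1, a choline transporter, had 32.6 and 27.3 in C57BL/6J KO lenses and 29.4 and 16.6 in 129SvJae KO lenses, against 36.4 and 37.2 in C57BL/6J WT lenses and 214 and 51.8 in 129SvJae WT lenses, with a log2 ratio of -1.28 (adjusted p = 0.998, SE 0.68) by limma. Of these 8 values 2 were above 50, and the high one came from 129SvJae WT replicate 1, the array with the high Sag signal. The part of retinal RNA in that value was not tested. The sum of the 6 retina markers with a probe set was 927 on that array, and 135 to 551 on the other 7. Without it the ratio of Slc44a1 was -0.77, and -0.54 with signals under 50 set to 50. Slc19a1, the reduced folate carrier, had 167 and 149 in C57BL/6J KO lenses and 236 and 165 in 129SvJae KO lenses, against 71.9 and 58.0 in C57BL/6J WT lenses and 112 and 119.8 in 129SvJae WT lenses. Its log2 ratio was 1.03 (adjusted p = 0.998, SE 0.36) by limma. A second, dimmer probe set of Slc19a1 leaned the other way, with -0.32 (adjusted p = 0.998, SE 0.66) by limma, and the mean of both had 0.35. The brighter probe set carries a suffix for oligonucleotides that may be shared with other transcripts, and the dimmer one does not.

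**Figure D3:**
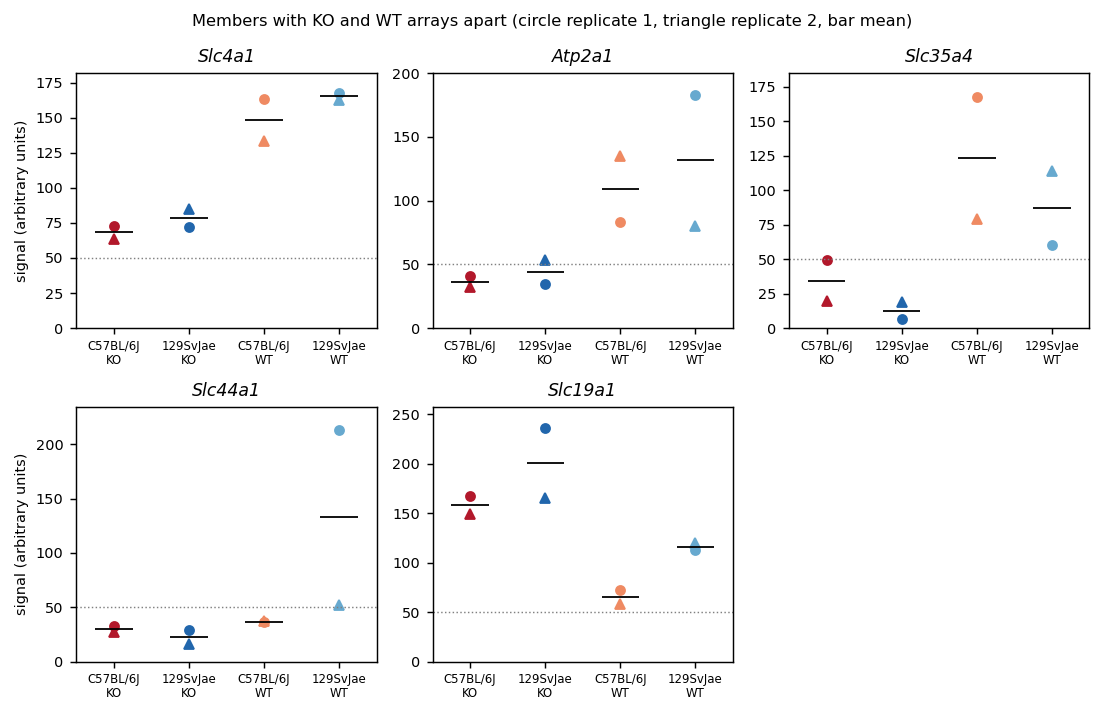
Signals of the 5 transport genes whose KO and WT arrays did not overlap, with KO groups left of WT groups (y axis, arbitrary units from 0; circle replicate 1, triangle replicate 2, bar mean of 2 arrays, dotted line the level of 50). All 5 were dim, and Slc4a1 spanned 63.5 to 84.7 in KO and 134 to 168 in WT lenses.

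Whether the strain difference itself depended on the genotype was tested as an interaction, the log2 strain difference in KO lenses minus that in WT lenses. None of the 133 genes passed by limma, beside 0% of all probe sets, and the t-test also gave 0. At an unadjusted p under 0.05, 2 genes were found by limma, 1.5% of the transport genes beside 2.11% of all probe sets, and 3 by the t-test. Slc12a1, a cotransporter of sodium, potassium and chloride best known from the kidney, had the lowest unadjusted p, 0.0355, with an interaction of 3.60 (adjusted p = 1.0, SE 1.54) by limma. Its signals were 181 and 67.8 in C57BL/6J KO lenses and 4.50 and 50.5 in C57BL/6J WT lenses, against 88.1 and 37.9 in 129SvJae KO lenses and 124 and 73.2 in 129SvJae WT lenses. Without C57BL/6J WT replicate 1, the array with the lowest of these signals, the interaction was 1.85, and it was 1.66 with signals under 50 set to 50. Slc35b2 had an interaction of 1.09 (adjusted p = 1.0, SE 0.48) by limma, with an unadjusted p of 0.0401. In its case the 2 low arrays were those of 129SvJae KO. Slc37a4, which carries glucose 6-phosphate into the endoplasmic reticulum, had signals of 157 and 144 in C57BL/6J KO lenses and 325 and 133 in C57BL/6J WT lenses, against 359 and 451 in 129SvJae KO lenses and 112 and 298 in 129SvJae WT lenses. Its interaction was -1.60 (adjusted p = 1.0, SE 0.75) by limma, -0.90 without 129SvJae WT replicate 1 and -0.96 without C57BL/6J WT replicate 1. The 2 arrays of 129SvJae KO were the highest of the 8 for Slc37a4, beside a spread of 112 and 298 within 129SvJae WT lenses.

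The arrays also differed by replicate number, which follows the scan session and the chip lot. The replicate 1 arrays were all of 1 lot, and the replicate 2 arrays were of another, except C57BL/6J KO replicate 2, alone in its lot, so session and lot cannot be told apart. The median absolute log2 difference over the 133 genes was 0.25 between the strains, 0.21 between the genotypes and 0.30 between replicate 2 and replicate 1, beside 0.29, 0.25 and 0.35 over all probe sets. All 4 replicate 2 arrays were above all 4 replicate 1 arrays for 7 genes, beside 3.31% of all probe sets, and below them for 3 genes, beside 5.47% of all. Slc2a1 was the brightest of these, with 1295 to 1527 on the replicate 2 arrays and 787 to 1031 on the replicate 1 arrays. Its log2 ratio of replicate 2 over replicate 1 was 0.63 (adjusted p = 0.148, SE 0.14) by limma. Slc38a10, of the sodium-coupled amino acid transporter family, spanned 482 to 619.9 and 139.7 to 399.6, and Slc48a1, a heme transporter, 276 to 396 and 66.2 to 245, each given for replicate 2 and then replicate 1. The mitochondrial carriers Slc25a51, which imports NAD, Slc25a28, which imports iron, and Slc25a44, which imports branched-chain amino acids, were higher in replicate 2 as well, as was Slc6a3, a dopamine transporter. The 3 lower genes were Slc23a2, with 114 to 140.1 and 169 to 196, Slc30a1, a zinc exporter, with 20.9 to 43.4 and 47.3 to 149, and Slc4a8, a sodium-driven bicarbonate exchanger, with 7.39 to 18.8 and 69.3 to 115, in the same order. No transport gene passed limma's test for the replicate number, beside 0.00992% of all probe sets, where Slc4a8 had a log2 ratio of -2.70 (adjusted p = 0.177, SE 0.63). Each group holds 1 array of each replicate number, and no transport gene changed its call with the replicate number as a block.

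**Figure D4:**
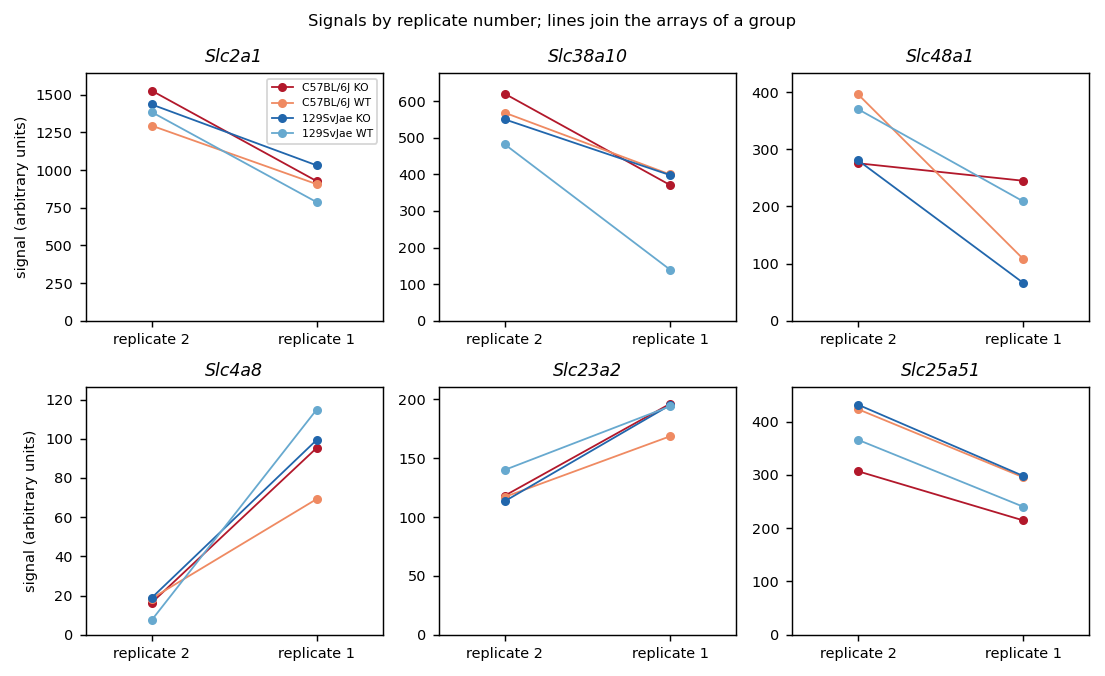
Signals of 6 transport genes on the replicate 2 and replicate 1 arrays (x axis), with a line for each of the 4 groups (y axis, arbitrary units from 0). Slc2a1 was higher on replicate 2 in all 4 groups, with 1295 to 1527 against 787 to 1031, and Slc4a8 and Slc23a2 were lower in all 4.

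How small a difference the arrays could show depended on the signal. For the averaged strain difference, the 95% interval reached a median of 2.72-fold either side of the ratio in the 44 genes with a mean signal under 100, 1.84-fold in the 35 between 100 and 200, 1.47-fold in the 33 between 200 and 500, and 1.33-fold in the 21 above 500. The whole interval lay within 2-fold of equality for 53 of 133 genes (39.8%) between the strains, beside 37.8% of all probe sets, and for 59 (44.4%) between the genotypes, beside 40.6% of all. These included 20 of the 21 genes above 500 in each comparison, and 0 of the 44 genes under 100. For aquaporins, 0 of 5 intervals between the strains and 1 of 5 between the genotypes lay within 2-fold, and for calcium ATPases 1 and 2 of 5, so for most of these genes the interval reached past 2-fold at 2 arrays per group. For amino acid carriers the counts were 12 and 14 of 28, for sugar carriers 9 and 10 of 17, for metal carriers 7 and 7 of 16, and for mitochondrial carriers 11 and 11 of 18.

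**Figure D5:**
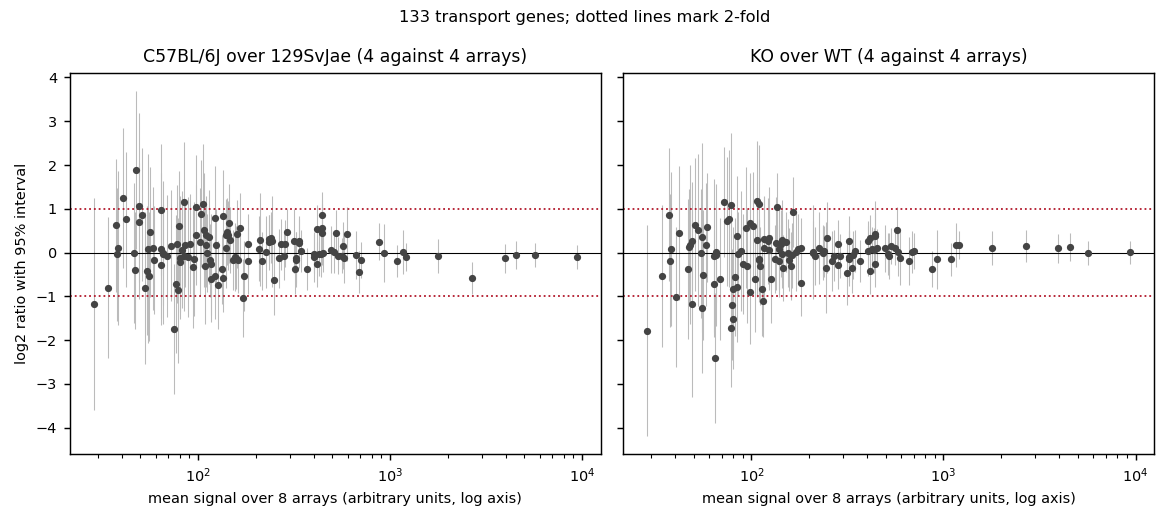
Log2 ratios of the 133 transport genes with 95% intervals from limma (y axis) against the mean signal over 8 arrays (x axis, arbitrary units, logarithmic), for C57BL/6J over 129SvJae (left) and KO over WT (right), with dotted lines at 2-fold. The median interval reached 2.72-fold under a signal of 100 and 1.33-fold above 500.

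By role, the medians of amino acid, sugar, metal and mitochondrial carriers lay between -0.08 and 0.31. The median log2 ratio between the strains was 0.10 in amino acid carriers, 0.20 in sugar carriers, 0.31 in metal carriers and -0.06 in mitochondrial carriers, and between the genotypes it was 0.08, -0.01, -0.08 and 0.10, given in the same order. These stand beside 0.01 and -0.02 over all probe sets. Calcium ATPases had medians of 0.07 between the strains and -0.56 between the genotypes, and aquaporins -0.30 and 0.02, over 5 genes each. No gene of any role was called. Of the 33 genes with several probe sets, 25 had another probe set above the level of 50, and these 26 probe sets had the same sign as the brightest one for 17 in the strain and for 10 in the genotype comparison, with 0 called by limma and a lowest adjusted p of 0.331 between the strains.

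Transport genes outside the symbol rule were looked at through lists by role. Of 139 genes on lists of pump regulators, vacuolar proton pump subunits, other P-type pumps, Slco and ABC transporters, ion channels and carbonic anhydrases, together with Mip, 113 were measured and 0 were called by limma for strain or genotype. At an unadjusted p under 0.05, limma gave 9 of the 113 between the strains, where it gave 6.97% of all probe sets, and 2 between the genotypes, where it gave 3.05% of all. Car2, the carbonic anhydrase that hydrates carbon dioxide in the cytosol, had group mean signals of 232 in C57BL/6J KO and 240.1 in C57BL/6J WT lenses, against 421 in 129SvJae KO and 464 in 129SvJae WT lenses, with a log2 ratio between the strains of -0.90 (adjusted p = 0.172, SE 0.23) by limma. The study lists Car2 as lower in C57BL/6J than in 129SvJae lenses of both genotypes, on its arrays and by real-time PCR. Abca4, a lipid transporter best known from photoreceptors, had 903 in C57BL/6J KO and 987 in C57BL/6J WT lenses, against 1450.3 in 129SvJae KO and 1591 in 129SvJae WT lenses, with -0.69 (adjusted p = 0.17, SE 0.17) by limma. Fxyd1, a regulatory subunit of the sodium pump, had 959 in C57BL/6J KO and 868 in C57BL/6J WT lenses, against 1342 in 129SvJae KO and 1528 in 129SvJae WT lenses, with -0.65 (adjusted p = 0.367, SE 0.20) by the same fit. Their 4 C57BL/6J arrays lay below their 4 129SvJae arrays in each case, a pattern found in 2.62% of all probe sets. Atp6v1g1 was also lower at an unadjusted p under 0.05 by limma, with -0.41, but its arrays overlapped. The other genes at that limit were higher in C57BL/6J: Abca2 (0.48), Abcd3 (0.69), Abcf3 (1.03), Atp6v0a2 (0.50) and Kcna2 (1.06). For all of them but Kcna2, the 4 C57BL/6J arrays lay above the 4 129SvJae arrays, beside 2.95% of all probe sets. Only the brightest probe set of each gene on these lists was used. The study lists Atp7a, the pump that exports the copper which Slc31a1 imports, as higher in C57BL/6J than in 129SvJae WT lenses. In KO lenses its difference between the strains was not significant in the study. Whether the study's value came from the probe set used here was not checked. Here the C57BL/6J arrays of Atp7a overlapped those of 129SvJae. Its log2 ratio between the strains, averaged over genotypes, was 0.09 (adjusted p = 0.973, SE 0.22) by limma. In WT lenses alone its signals were 314 and 352 in C57BL/6J and 265 and 334 in 129SvJae. Its KO and WT arrays did not overlap, with group means of 513 in C57BL/6J KO and 503 in 129SvJae KO lenses, against 333 in C57BL/6J WT and 299 in 129SvJae WT lenses, and its log2 ratio of KO over WT was 0.68 (adjusted p = 0.998, SE 0.22) by limma.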

How the data were processed

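Total RNA of pooled mouse lenses was hybridized by the authors to MG-U74Av2 chips, 2 arrays for each of 4 groups. The deposited values are intensity values, 1 MAS5 signal per probe set and array, which the authors scaled to a mean of 250; detection calls and probe-level data were not used here. Each array was rescaled to a mean of 250 after 2% had been trimmed from each end, and a single value that was not positive was replaced by 1 before log2. After 66 control probe sets were removed from 12488, the 10078 whose mean exceeded 50 in any group were fitted in R 4.3.3 with limma 3.58.1 (4 group means, variance trend, 13.2 degrees of freedom) and p-values were adjusted over all of them by the Benjamini-Hochberg method, with 0.05 as the threshold. Groups and replicate numbers came from the sample labels. Among the remaining 12422, 10833 had 1 gene symbol, 396 several and 1193 none, and all 133 genes matched a gene table of GRCm38.p6. Probe sets of 13 of them carry a suffix for oligonucleotides that may be shared with other transcripts.

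Genes were named by rule: the 15 brightest, any gene called, up to 6 in each direction whose arrays did not overlap with a mean above 100 in a group, those past the methods' thresholds, the 3 with the lowest interaction p, and a panel of 53 lens transport genes, of which 34 were measured, 4 were below 50 and 15 were not analysed here. Genes given for the replicate number, Slc4a1ap, Slc9a3r1, Slc9a3r2 and the neighbours outside the symbol rule were added to these. Genes and lists were chosen with earlier results of these data known. The replicate numbers pair the arrays, since deviations from the group means correlated at 0.129 to 0.206 across all probe sets in all 6 pairs of groups (-0.041 to 0.244 across the 133 genes), and the run records put replicate 1 of all groups in 1 scan session. Alternatives were the signals as deposited, quantile normalization, centring on the median, 16 added to all signals, signals under 50 raised to 50, a level of 100 or none, a robust prior or one without a trend, a fit of the compared groups alone, a block for the scan session or for the replicate number, the methods' t-test, the mean of all probe sets of a gene, and each array left out in turn. The fit was tested on simulated signals. The precision is limited by 2 arrays per group and by signals near background.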

Additional observations from a re-analysis of the deposited data

Results flagged for a closer look

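For 2 genes of the lens transport panel, the arrays of 1 group all moved one way and those of the other group all moved the opposite way under the same contrast. How often this pattern occurs over all probe sets was not counted, so the 2 genes cannot be set against chance. Slc1a2, the glutamate transporter best known from glia, had signals of 144 and 136 in C57BL/6J KO lenses and 138 and 45.1 in 129SvJae KO lenses, against 126 and 29.3 in C57BL/6J WT lenses and 151 and 160.0 in 129SvJae WT lenses. Its KO effect in C57BL/6J lenses minus that in 129SvJae lenses was 2.18 on the log2 scale, with KO arrays above WT arrays in C57BL/6J lenses and below them in 129SvJae lenses. The test of this difference, limma's interaction, gave an SE of 1.07, an unadjusted p of 0.0623 and an adjusted p of 1.0, so it did not pass, and in C57BL/6J WT and 129SvJae KO lenses 1 array was below 50.

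Slc4a2, the chloride and bicarbonate exchanger, had signals of 218 and 223 in C57BL/6J KO lenses and 316 and 307 in C57BL/6J WT lenses, against 245 and 254 in 129SvJae KO lenses and 139 and 210.2 in 129SvJae WT lenses. Its strain difference in KO lenses minus that in WT lenses was -1.04 on the log2 scale, which is also its KO effect in C57BL/6J minus that in 129SvJae lenses, -1.04. C57BL/6J arrays lay below 129SvJae arrays in KO lenses and above them in WT lenses. Limma's interaction for it had an SE of 0.53, an unadjusted p of 0.0728 and an adjusted p of 1.0, and did not pass either.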

How the results depend on the processing

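Of 22 alternatives, 1 changed a count of transport genes past an adjusted p of 0.05 by limma: with the scan session as a block, 1 gene, Slc31a1, was called between the strains averaged over genotypes (-0.75, adjusted p = 0.0236), and its adjusted p ran from 0.0236 to 0.881 over all alternatives. The replicate number as a block changed no call, with an adjusted p of 0.114 for Slc31a1. The 14 named log2 ratios kept their sign under every alternative. Most of them were chosen because their arrays did not overlap between the strains or the genotypes. For these, leaving out an array, raising low signals to a floor or adding a constant to all signals cannot reverse the sign. Their stable sign under those alternatives was fixed by the choice and is no evidence of robustness. Counts by the methods' thresholds moved more. For the strain difference in KO lenses (1 gene, Slc35b2) they were 0 without the variance trend and with the t-test, 2 with only the groups compared and with a block for the scan session, and 0 to 2 with 1 array left out. Without C57BL/6J KO replicate 1 the count was 0, and without 129SvJae KO replicate 1 the 2 genes were Slc25a47 and Slc30a3. In WT lenses (0 genes) they were 1 with the replicate block (Slc2a5) and with the t-test (Slc27a4), 4 with a block for the scan session, and 0 to 3 with 1 array left out, the 3 arising without 129SvJae WT replicate 2 or C57BL/6J WT replicate 2. For the KO effect in C57BL/6J lenses (0 genes) they were 2 without the variance trend (Slc19a1 and Slc4a1) and 0 to 2 with 1 array left out, the 2 without C57BL/6J WT replicate 2. In 129SvJae lenses (0 genes) they were 1 with no level filter, no variance trend, a robust prior, the mean of all probe sets of a gene (Slc35a4 in each), the replicate block (Slc7a6) and the t-test (Slc27a4), 4 with a block for the scan session, and 0 to 4 with 1 array left out, the 4 without 129SvJae WT replicate 2. That array is alone in its session, and the same 4 genes, Slc25a15, Slc35e1, Slc37a4 and Slc38a10, passed with the session as a block. The cause of the other moves was not tested. An array left out leaves a group with 1 array, assumed to vary like the others. Signal over background limits the dim genes most: under a mean of 100 the intervals reached 2.72-fold.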
